A study of Mus musculus with 9 samples.

Results

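Deletion of Ebf1 with Dlx5/6::Cre was compared with Control across the transcriptome of the embryonic mouse striatum, over 6 of the 9 libraries of the series. The mutants were 3 Dlx5/6::Cre;Ebf1fl/- embryos and the comparison group was 3 Control embryos, all dissected at E17.5 and labelled C57BL/6, with each library labelled as coming from an individual embryo. The study's methods add that its Islet1Cre line was kept on B6D2F1/J, and controls 1 and 2 share an embryo code prefix with the Islet1Cre;Ebf1fl/- embryos, so a common background for all 6 is not certain. Mutants carried 1 floxed and 1 null Ebf1 allele together with the Cre transgene. By the study's methods, such mutants came from crosses of Ebf1fl/fl mice with Cre carriers that had a null allele, and any embryo of these crosses inherits a floxed allele. The methods describe the controls as heterozygous, without saying which alleles or Cre each control library carried. The remaining 3 libraries came from Islet1Cre;Ebf1fl/- embryos. They entered the filter, the normalization and the estimate of the spread, but not the contrast.

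Ebf1 is a transcription factor made by direct pathway striatal projection neurons (dSPN), which send their axons to the basal ganglia output nuclei. Indirect pathway neurons (iSPN) reach the pallidum instead, and both types migrate from dividing progenitors of the ganglionic eminence into the mantle. Dlx5/6::Cre recombines in both types of projection neuron and in interneurons, so the deletion is not limited to the cells that make Ebf1. The question put to the data was which genes, and which kinds of genes, differ in level once Ebf1 is removed from these neurons.

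Libraries held between 27915040 and 38002318 counts on genes. Levels are given throughout as normalized counts, which are counts divided by a size factor for each library, and they do not compare 1 gene with another because they are not corrected for gene length. The values of a gene are listed in the order of replicates 1, 2 and 3 of each group. Mutant replicate 1 stood apart from the other libraries. Of 12066 genes with a mean normalized count of at least 100, 296 were over 2-fold above all 5 other libraries in mutant replicate 1, against 0 to 7 in each of the others. The embryo codes have the prefix IE for controls 1 and 2, and D for control 3 and all 3 mutants. What the prefix stands for is not given in the sources used here. Control 3 had both Xist and Y-linked transcripts, the latter at 7.77% of their summed level in control 2, whereas Xist was at 3.27 in control 2 and the Y-linked genes were at or near 0 in control 1 and the mutants. Whether the control 3 library holds RNA of more than 1 embryo was not tested. In bulk tissue, fewer cells of a type and less RNA per cell cannot be told apart.

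The targeted gene was measured first. Ebf1 lies on chromosome 11 (GRCm38, chr11:44617317-45008091, plus strand), and its normalized counts were 7945, 14208 and 9697 in controls and 11774, 13079 and 15312 in mutants. The groups overlapped, with a log2 fold change of 0.33 (95% interval -0.06 to 0.73, edgeR quasi-likelihood test, adjusted p = 0.399). These counts cover all exons of the gene together and do not separate the deleted part from the rest, so they do not check the genotype labels.

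At an adjusted p below 0.05, 392 of 16368 tested genes differed between mutants and controls (2.39%), 220 of them lower (1.34%) and 172 higher (1.05%). Of these, 365 were protein-coding. In 391 of the 392 the 3 mutants all lay on 1 side of the 3 controls, which was so for 20.9% of all genes tested. Among the 220 lower genes mutant replicate 1 was the lowest mutant in 144, and among the 172 higher genes it was the lowest mutant in 87.

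Leaving out mutant replicate 1 raised the number of calls to 613 of 16652 (3.68%), with 265 lower (1.59%) and 348 higher (2.09%). Both fits called 372 genes, all in the same direction. Only 20 calls were lost without replicate 1, and 241 were gained, of which 183 were higher in the mutants. The share of calls that were higher moved from 43.9% to 56.8%. The count also depended on each other library, with 229 calls without mutant replicate 2, 170 without mutant replicate 3, 143 without control 1, 254 without control 2 and 187 without control 3. When the prefix of the embryo code entered the model, which sets the 3 mutants against control 3, 32 genes were called (0.196%), 27 lower and 5 higher. Of the genes described below these included Atp6ap1l, Col6a1, Nefl, Syt4, Reln, Col25a1, Zfp521, Lmo2 and Plxnd1 among the lower ones, and Chrm3, Epha5 and Tenm3 among the higher ones. Embryo code and genotype are thus separated by control 3 alone, the library with both Xist and Y-linked transcripts.

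**Figure D1:**
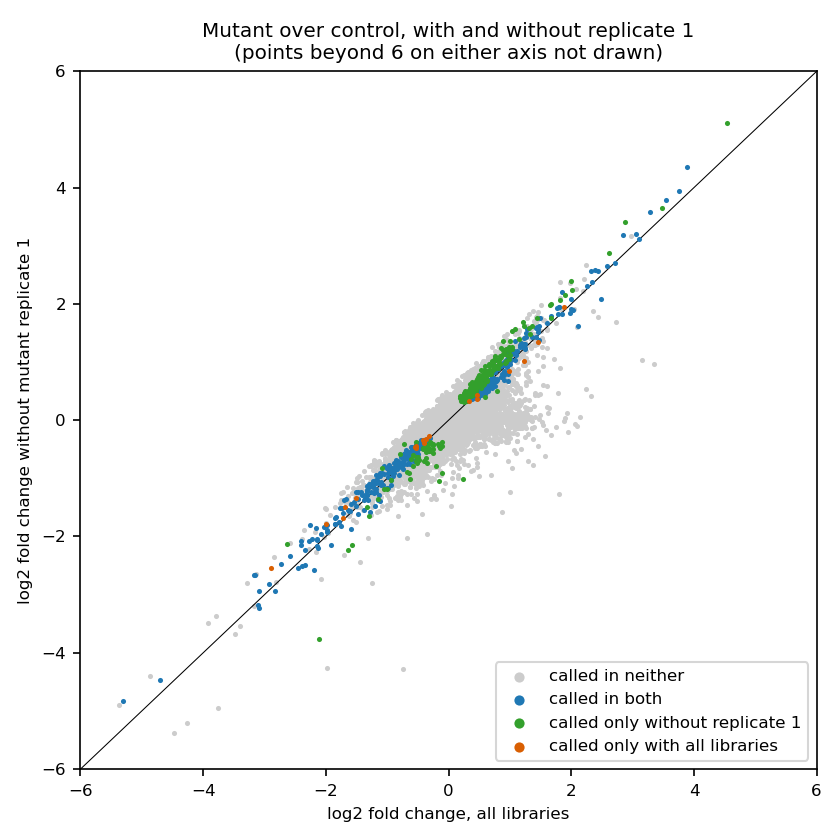
Log2 fold change of each gene in mutants over controls, with all libraries (horizontal axis) and without mutant replicate 1 (vertical axis), each point a gene and the line marking equal values. The 372 genes called in both lie along the line, and most of the 241 called only without replicate 1 lie on the side of a higher level in the mutants.

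The genes that fell most coded for receptors, a neurofilament, matrix proteins and nuclear regulators. They were the 12 protein-coding genes with the largest decrease among those with a mean of at least 100 and groups that did not overlap. Nefl, the light chain of the neurofilament that fills large axons, had normalized counts of 3149, 2566 and 3237 in controls and 294, 648 and 539.8 in mutants. Every mutant was well below every control, and the log2 fold change was -2.59 (SE 0.29, adjusted p = 0.00194). Nefm, its partner subunit, stood at 1054, 857 and 1235 in controls and 612, 378 and 377 in mutants and fell by 1.21 on the log2 scale. These were 2 of the 6 tested intermediate filament genes.

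Atp6ap1l (chr13:90883433-90905355), named for its likeness to an accessory subunit of the proton pump of vesicles, showed the largest decrease of the 12. Its values were 408, 376 and 198 in controls and 7.56, 18.2 and 11.4 in mutants, a log2 fold change of -4.70 (SE 0.51). Brs3, an orphan receptor of the bombesin family, stood at 189, 163 and 302 in controls and 19.4, 28.2 and 28.5 in mutants. Egfem1, a protein with EGF-like domains, stood at 282, 262 and 259 in controls and 54.0, 57.4 and 35.1 in mutants. The mutants of all 3 genes were far below their controls, and control 3 was the lowest control in Atp6ap1l.

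Rgs4, which speeds the shutdown of Gi and Gq proteins, was abundant in controls and fell in each mutant, with 12359, 11293 and 13492 in controls and 1423, 2951 and 2669 in mutants. Its log2 fold change was -2.40 (SE 0.32, adjusted p = 0.00429), and mutant replicate 1 was the lowest. Adra2b, an adrenergic receptor that couples to Gi, stood at 271, 163 and 106 in controls and 15.1, 50.1 and 35.1 in mutants. Syt4, a synaptotagmin of vesicle traffic, had 5302, 7351 and 10843 in controls and 1571, 1861 and 1887 in mutants. The 3 mutants lay close together in Syt4, while control 3 was the highest control.

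Of the nuclear regulators, Zfp521 and Lmo2 fell with little spread among the mutants. Zfp521, a zinc finger protein known to bind Ebf1, had 4358, 4075 and 5144 in controls and 1043, 1003 and 1009 in mutants, and its log2 fold change was -2.15 (SE 0.18). Lmo2, a LIM-only adaptor of transcription complexes, had 1909, 1436 and 1394 in controls and 389.7, 338 and 353 in mutants, with a log2 fold change of -2.13 (SE 0.17). Both had an adjusted p of 0.000606, and both calls held under all 15 alternative settings.

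The 3 matrix genes complete the set. Col6a1, a chain of collagen VI, had 1713, 1131 and 1967 in controls and 142, 328 and 253 in mutants. Col25a1, a membrane collagen made by neurons, had 2123, 1392 and 1987 in controls and 271, 449.8 and 446 in mutants. Reln, the secreted protein that guides neuronal positioning, had 3911, 4656 and 5830.4 in controls and 944, 1118 and 1353 in mutants. In Col6a1 and Col25a1 mutant replicate 1 was below the other mutants, and without it the log2 fold changes were -2.47 and -2.04 in place of -2.73 and -2.23.

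Chosen by the same limits, the 12 genes that rose most included receptors, an adenylyl cyclase, adhesion proteins and enzymes. Chrm3 (chr13:9875486-10360847), the M3 muscarinic receptor that couples to Gq, went from 72.4, 89.0 and 69.3 in the controls to 501, 667 and 755 in the mutants, a log2 fold change of 3.05 (SE 0.20, adjusted p = 0.000208). Chrm4, the Gi-coupled M4 receptor of dSPN, moved the opposite way, from 475, 571 and 501 to 152, 188 and 213. No other acetylcholine receptor of the 12 tested was called.

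Adcy8, a calcium-stimulated adenylyl cyclase, had 36.2, 53.1 and 39.4 in controls and 182, 227 and 288 in mutants. Gfra1, the receptor subunit that binds GDNF, had 337, 499.8 and 544 in controls and 1725, 2657 and 2866 in mutants, a log2 fold change of 2.39 (SE 0.25). Avpr1a, a vasopressin receptor, had 18.1, 53.9 and 31.7 in controls and 109, 199 and 215 in mutants. In all 3 genes mutant replicate 1 was the mutant nearest to the controls.

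Sdk1, an immunoglobulin adhesion protein that matches synaptic partners, had 212, 259 and 259 in controls and 899, 722 and 997 in mutants. Sorcs3, a sorting receptor, had 268, 530.0 and 434 in controls and 1097, 1488 and 1688 in mutants. Kcnk13, a tandem-pore potassium channel, had 34.4, 52.3 and 48.1 in controls and 65.8, 216 and 202 in mutants, and its log2 fold change rose from 1.84 to 2.21 without mutant replicate 1. Mutant replicate 1 was thus close to the controls in Kcnk13 while mutants 2 and 3 were well above them.

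Gadd45g, a stress- and differentiation-induced regulator of growth, behaved in the opposite manner, with 264, 247 and 189.5 in controls and 1606, 687 and 747 in mutants. Replicate 1 was the highest mutant here, and the log2 fold change was 2.11 with it and 1.62 without it. Cyp26b1, which breaks down retinoic acid, had 360.0, 668 and 187 in controls and 1935, 2276 and 747 in mutants. Its groups nearly met, since mutant 3 was just above control 2. Stk32a, a serine/threonine kinase, had 45.2, 73.5 and 51.0 in controls and 196, 218 and 267 in mutants. Lonrf3, a RING finger protein, had 60.6, 148 and 75.0 in controls and 413, 262 and 456 in mutants. Spp1, which codes for the secreted protein osteopontin, had the largest increase of the 12 at 3.54 (SE 0.67) but rested on low counts of 28.9, 31.0 and 9.62 in controls and 165, 486 and 168 in mutants.

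**Figure D2:**
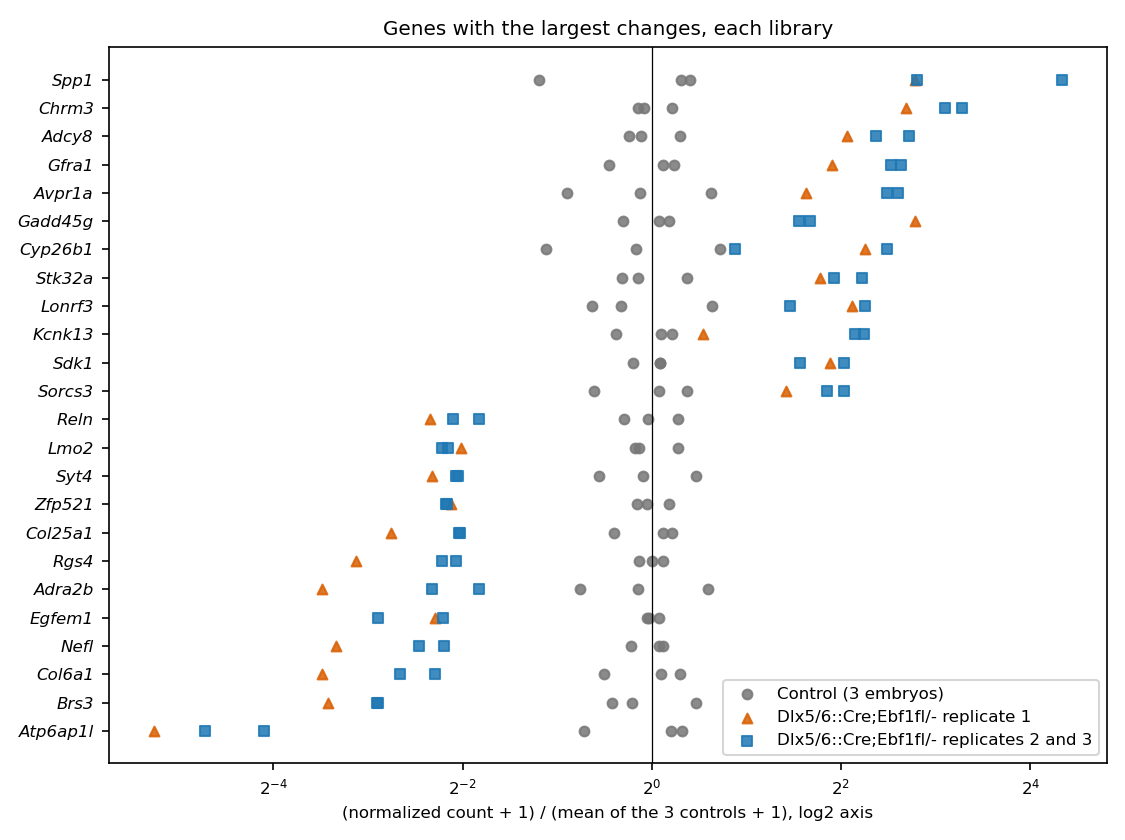
Normalized count of each library over the mean of the 3 controls, 1 added to both, on a log2 axis, for the 12 lower and 12 higher genes; grey circles are controls, the orange triangle is mutant replicate 1 and blue squares are mutants 2 and 3. No mutant point overlaps the controls of its gene, and replicate 1 lies to the left of both other mutants in Nefl, Col6a1 and Rgs4 as well as in Chrm3, Gfra1 and Kcnk13.

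Functions were followed through 40 gene lists that held 1283 tested genes, of which 104 were called. Each list is read against the 2.39% of all genes called and against a median log2 fold change of all genes of 0.01. Counts at an unadjusted p below 0.05, also those of the cell markers, have their own background. By edgeR, 2543 of all 16368 genes were below it with all libraries, and 2872 of 16652 without mutant replicate 1. The lists and members were chosen with earlier results of these data known, so their shares of calls can lie above 2.39% for that reason. Counts describe the lists and carry no test.

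Among the receptors and ligands that steer axons, the semaphorin system had 5 of 31 tested members called. Plexin D1, a receptor for class 3 semaphorins, fell and was abundant, with 15827, 14741 and 11846 in controls and 3522, 4139.5 and 4034 in mutants, a log2 fold change of -1.86 (SE 0.17). The other 4 rose. Nrp2, a neuropilin co-receptor, had 175, 257 and 264 in controls and 600.1, 779 and 823 in mutants. Nrp1 had 540.0, 474 and 429 in controls and 989.8, 834 and 974 in mutants. Plxna4 and Plxnc1 each rose by 0.55 on the log2 scale. The median of the list was -0.01, near that of all genes.

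Eph receptors were called in 2 of 21 members, both higher. Ephb6 had 1327, 1564 and 1502 in controls and 2560.3, 3261 and 3209 in mutants. Epha5 had 1991, 2070.2 and 1776 in controls and 3787, 3119 and 3244 in mutants. Without mutant replicate 1, Efnb3 and Epha6 were called too, with log2 fold changes of 0.46 and 1.49. Of the Slit, Robo and netrin genes 2 of 21 were called. Slit2, a repellent ligand, rose by 0.97, and Draxin, a secreted guidance protein, fell by 0.37 on the log2 scale.

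Adhesion genes were called in both directions. Of 32 cadherins and protocadherins, 7 were called. Cdh8 and Cdh13 fell, with Cdh13 at 6053, 5746 and 5899 in controls and 1674, 3085 and 3032 in mutants. Cdh8 stood at 7877, 8032 and 10119 in controls and 2980.2, 4325 and 4109 in mutants. Cdh20, Cdh4, Cdh7 and Pcdh8 rose by 1.47, 1.24, 1.18 and 0.70 on the log2 scale. Cdh4 was tight within the mutants, at 5850.4, 5827 and 5836 against 2070.4, 2814 and 2512 in the controls. Of 13 contactins and contactin-associated proteins, Cntn5 and Cntnap3 fell and Cntnap4 rose. Cntn5 had 871, 1016 and 798 in controls and 191, 255 and 301 in mutants.

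Teneurins and leucine-rich repeat proteins, which bind partners across the synaptic cleft, had 4 of 36 members called with all libraries and 10 without mutant replicate 1. Tenm2 fell and Tenm3 rose. Tenm3 had 3012, 3945 and 3009 in controls and 7724, 7842 and 10085 in mutants. Tenm2 had 4751, 4289 and 3831 in controls and 1579, 1871 and 2056 in mutants. Adgrl2, a latrophilin that binds teneurins, and Lrfn5 fell by 0.81 and 1.12 on the log2 scale. Tenm4, Flrt2, Slitrk6, Lrrtm3, Adgrl3 and Lrfn2 were called only without mutant replicate 1. Igsf21 and Sdk1 rose among 32 immunoglobulin adhesion proteins. Clstn2, a calsyntenin, rose by 0.78, as did the laminin receptor subunit Itga6 by 0.70.

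Matrix genes had 11 of 88 members called, 7 lower and 4 higher. Besides Col6a1, Col25a1 and Reln, the lower ones included Spock1, a secreted proteoglycan, at 2015, 2102 and 1786 in controls and 685, 1009 and 1022 in mutants. Frem3 was low throughout, at 38.9, 18.8 and 25.97 in controls and 0, 2.73 and 5.71 in mutants. Of the higher ones Nell1, a secreted glycoprotein, rose by 1.27 with all libraries and by 1.57 without replicate 1. The list's median was 0.07.

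**Figure D3:**
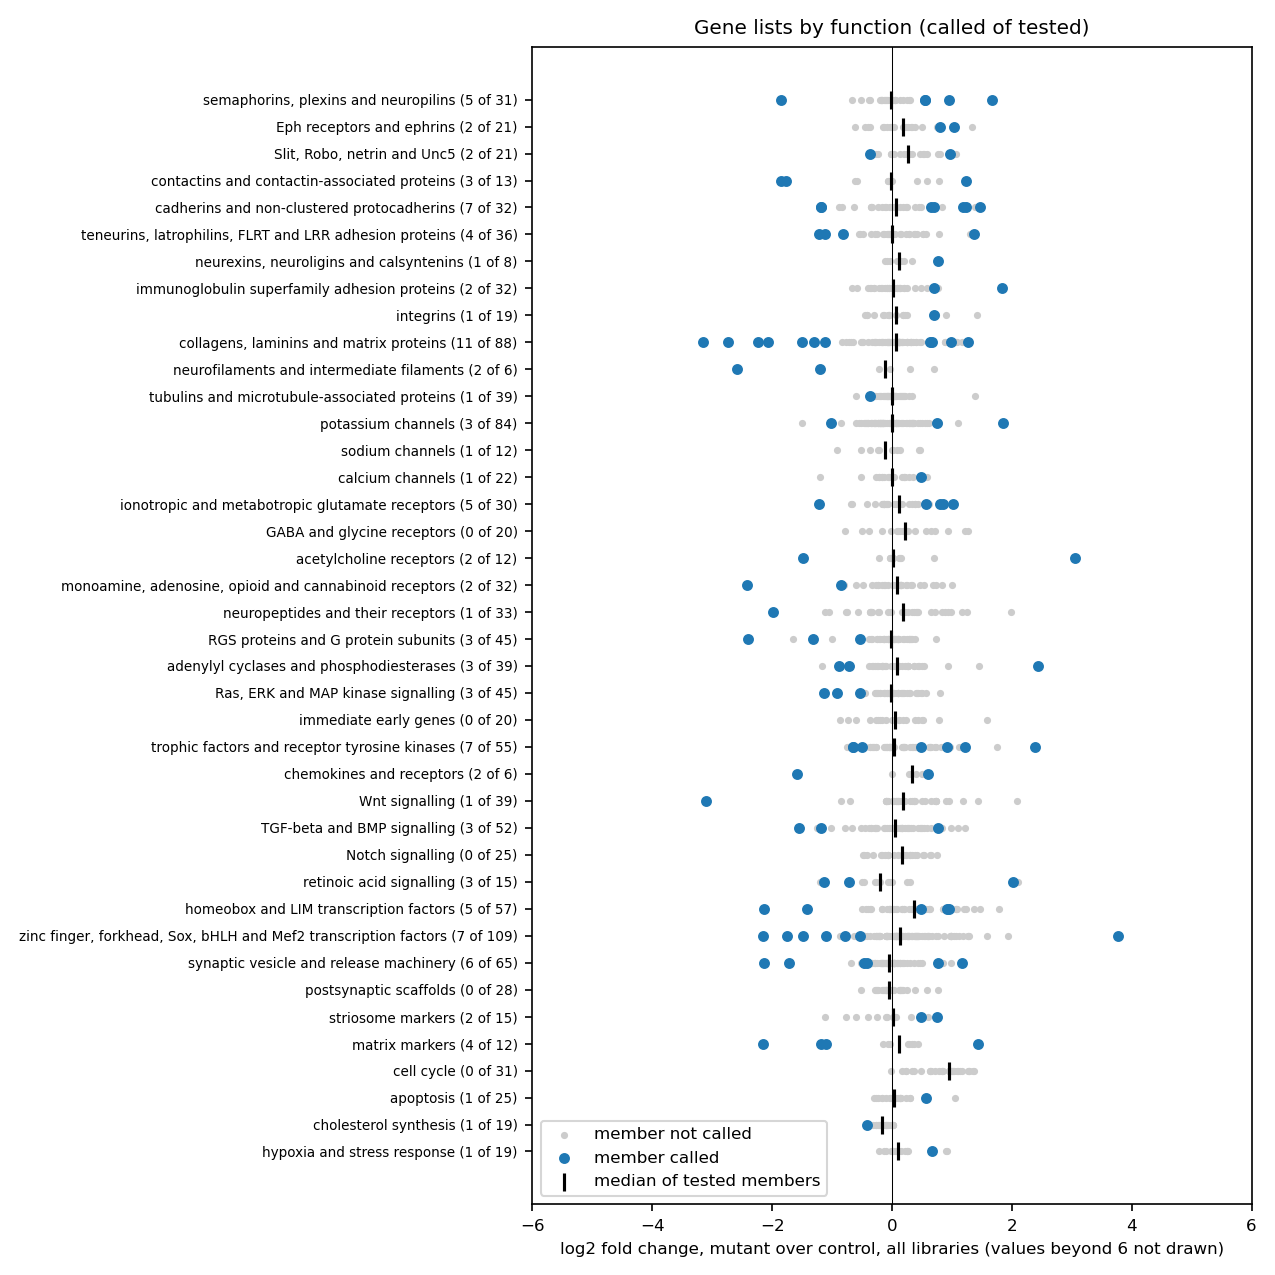
Log2 fold change of every tested member of 40 gene lists, with called members in blue, the rest in grey and the median as a vertical bar; the numbers beside each name are called of tested. Called members lie on both sides of 0 in lists such as the cadherins and the matrix genes, and the median is furthest from 0 in the cell cycle list, at 0.95, where no member was called.

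Genes of glutamate receptors, which respond to cortical and thalamic input, and of their auxiliary subunits were called mostly as higher. In all, 5 of 30 genes of this list were called, and Grin3a, Grm7, Grik4 and the auxiliary subunit Shisa9 rose. Grm7, a presynaptic receptor that couples to Gi, had 599, 742 and 772 in controls and 1061, 1656 and 1537 in mutants. Grin2c, an NMDA receptor subunit, fell from 301, 173 and 184 to 69.1, 106 and 106. Without mutant replicate 1, 9 of 31 were called, and the added ones, Cnih3, Grm5 and Gria1 among them, were all higher.

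GABA receptor genes changed with the library. None of 20 tested GABA and glycine receptor genes was called with all libraries by edgeR, where 6 had an unadjusted p below 0.05. Without mutant replicate 1, 4 were called, all higher. Gabrg1 had 137, 286 and 149 in controls and 161, 738 and 435 in mutants. Gabra3 had 507, 763 and 779 in controls and 896, 1548 and 1451 in mutants. In both, replicate 1 was the lowest mutant. Gabrg3 had a log2 fold change of 0.85 without it. The median of the list was 0.21 with all libraries and 0.40 without it.

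Potassium channels had 3 of 84 members called. Kcna6, a voltage-gated channel, had 2069.6, 2209 and 1968 in controls and 753, 1235 and 1113 in mutants. Kcnip1, which binds Kv4 channels, rose by 0.75. Of 12 sodium channel genes, Scn10a was called, with raw counts of 124, 133, 40 in the controls and 0, 1, 0 in the mutants. Cacna1g, a T-type calcium channel, rose by 0.49.

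In the G protein and MAP kinase lists every member called with all libraries fell, and without mutant replicate 1 Gnai1, a Gi protein subunit, was called as higher. All 3 called of 45 RGS and G protein genes fell, namely Rgs4, Rgs6 and Gnb4. Rgs6 had 2986, 2453 and 2311 in controls and 867, 1073 and 1153 in mutants. All 3 called of 45 Ras and MAP kinase genes fell as well. Rasal1, which inactivates Ras, had 1379, 1049 and 1067 in controls and 393, 635 and 572 in mutants. Map2k1, the kinase upstream of ERK, had 2736, 2413 and 1920.1 in controls and 1226, 1339 and 1178 in mutants. Rps6ka2 fell by 0.53 on the log2 scale. Pde10a and Pde7b, which break down cyclic nucleotides in projection neurons, fell by 0.71 and 0.88. Adora1, the adenosine A1 receptor, had 3762, 3648 and 4054 in controls and 1682, 2292 and 2366 in mutants. Of 33 neuropeptide genes only Gal, the galanin precursor, passed the test with all libraries, at 70.6, 64.5 and 69.3 in controls and 11.9, 23.7 and 15.5 in mutants. No immediate early gene of 20 was called with all libraries by edgeR, with 7 at an unadjusted p below 0.05.

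Trophic factor genes were called in 7 of 55 members. Next to Gfra1, Nrg3, a neuregulin, had 105, 198 and 131 in controls and 243, 417 and 352 in mutants. Pdgfc and Igfbp4 rose by 0.92 and 0.48. Ntrk2 and Ntrk3, the neurotrophin receptors TrkB and TrkC, fell by 0.51 and 0.65 on the log2 scale. The chemokine receptors moved in opposite directions. Cxcr4, the receptor for Cxcl12, had 1436, 1048 and 1033 in controls and 533, 339.6 and 302 in mutants. Ackr3, which takes up the same ligand, rose by 0.60. Wnt11 was the single call of 39 Wnt genes, with 87.7, 68.6 and 51.9 in controls and 9.71, 6.37 and 8.15 in mutants. Tgfb2 and the BMP antagonist Chrd fell by 1.54 and 1.19, and Acvr2a, an activin receptor, rose by 0.77. Crabp1 and Stra6, which handle retinoids, fell by 1.13 and 0.71, opposite to Cyp26b1.

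Transcription factors other than Zfp521 and Lmo2 were called in both directions. Sox8 had 5547, 5013 and 4215 in controls and 1575, 1390.5 and 1409 in mutants and fell by 1.76 on the log2 scale. Foxo1, a forkhead factor restrained by insulin signalling, had 2156, 1985 and 2803 in controls and 525, 939.7 and 1022 in mutants. Ikzf1, which is known to act in iSPN, had 6115, 3497 and 3958 in controls and 2103, 2186 and 2016 in mutants. Mef2c fell by 0.78. Lmo4, a LIM-only factor like Lmo2, rose from 11122, 11094 and 12754 to 18867, 22943 and 25661. Pou3f1 rose by 0.91. Klf14 was near 0 in controls, at 0.905, 8.17 and 4.81 in controls and 46.4, 70.1 and 79.1 in mutants. Of the 14 markers of projection neurons Foxp1 alone was called, at 17975, 19407 and 21499 in controls and 11495, 13794 and 15471 in mutants.

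Release genes had 6 of 65 members called. Rph3a, a Rab3 effector of vesicles, was abundant and fell, with 12509.5, 10032 and 12514 in controls and 2864, 3890.0 and 3849 in mutants. Stx1a and Syt7 fell by 0.47 and 0.42 on the log2 scale. Syt2 and Sv2c rose by 1.17 and 0.77. Of 12 matrix compartment markers 4 were called, Cdh8, Zfp521 and Ikzf1 lower and Dgkb higher, while the median of the list was 0.12 with all libraries and 0.28 without replicate 1. Of 15 striosome markers Nnat and Kcnip1 were called, both higher, and the median was 0.03 and -0.16.

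Mutant replicate 1 had higher levels of cell cycle, progenitor and cortical genes than the other libraries. The sums of astrocyte and thalamus markers were highest there too, at 1.69 and 1.43 of the control mean. Of the single markers, 2 of 5 astrocyte and 2 of 6 thalamus ones were highest in replicate 1, and 1 and 2 were lowest. The cell cycle genes were shifted furthest of these, with all 31 highest in replicate 1 among the 6 libraries. Their summed level was 30548, 31291 and 27798 in the controls, 81967 in mutant replicate 1, and 28427 and 29947 in mutants 2 and 3. Mki67, a marker of cycling cells, had 747, 756 and 465 in controls and 3540.4, 555 and 646 in mutants. Top2a, which untangles replicated DNA, had 945, 1052 and 822 in controls and 4958, 1002 and 919 in mutants. Mutants 2 and 3 lay within or close to the control range. With all libraries the median log2 fold change of the list was 0.95 and without replicate 1 it was -0.02. By edgeR 0 of 31 were called in either fit, with 10 and 1 at an unadjusted p below 0.05. All 10 progenitor markers were highest in replicate 1 too, with Vim, an intermediate filament of radial glia, at 2895, 3024 and 2566 in controls and 8449.6, 2795 and 2539.8 in mutants.

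By summed level, cortical excitatory neuron markers were raised less than progenitor markers in replicate 1, at 1.42 and 2.13 of the control mean. The order was reversed for the median log2 fold change with all libraries, at 0.86 for cortical and 0.67 for progenitor markers. Of 22 markers, 17 were highest and 3 were lowest in replicate 1 among the 6 libraries. The summed level of all 22 was 20276, 19905 and 19618 in the controls and 28348, 21267 and 23375 in the mutants. Neurod6, a cortical bHLH factor, had 575, 381 and 238 in controls and 1507, 509.9 and 854 in mutants. Tbr1, a deep-layer factor, had 636, 607 and 393 in controls and 1667, 892 and 786 in mutants. Neurod2 had 749.8, 569 and 270.3 in controls and 1579, 736 and 848 in mutants. Fezf2, of subcortically projecting neurons, had 20.8, 26.1 and 17.3 in controls and 291, 81.04 and 57.9 in mutants. Eomes, of cortical intermediate progenitors, had 226, 109 and 47.1 in controls and 617, 41.0 and 44.0 in mutants. The sums of mutants 2 and 3 were also above all controls. Both of these mutants exceeded every control in Tbr1 and Fezf2, and mutant 3 did so in Neurod6 and Neurod2. Without replicate 1 the log2 fold change was above 0 in 18 of the 22 markers. Those below 0 included Eomes, Emx1 and Mef2d, at -1.58, -0.27 and -0.17. The list's median was 0.86 with all libraries and 0.44 without replicate 1, and no marker was called in either fit by edgeR, with 11 and 6 at an unadjusted p below 0.05. The part of cortical cells in the differences between genotypes was not tested, and leaving out replicate 1 does not remove the higher sums of mutants 2 and 3.

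Striatal projection neuron markers summed to between 115151 and 140309 in the controls and to 110597, 130623 and 140051 in the mutants. These markers were thus present in all 6 libraries, but their sum was lowest in replicate 1, at 0.853 of the control mean. Of the 14 markers, 8 were lowest and 0 were highest in replicate 1 among the 6 libraries. Summed cholinergic markers stood at 973, 1643 and 1537 in controls and 833, 1524 and 1283 in mutants, with all 5 lowest in replicate 1. Summed markers of interneurons from the medial ganglionic eminence were at 0.627 of the control mean in replicate 1 and at 0.953 and 0.813 in mutants 2 and 3.

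**Figure D4:**
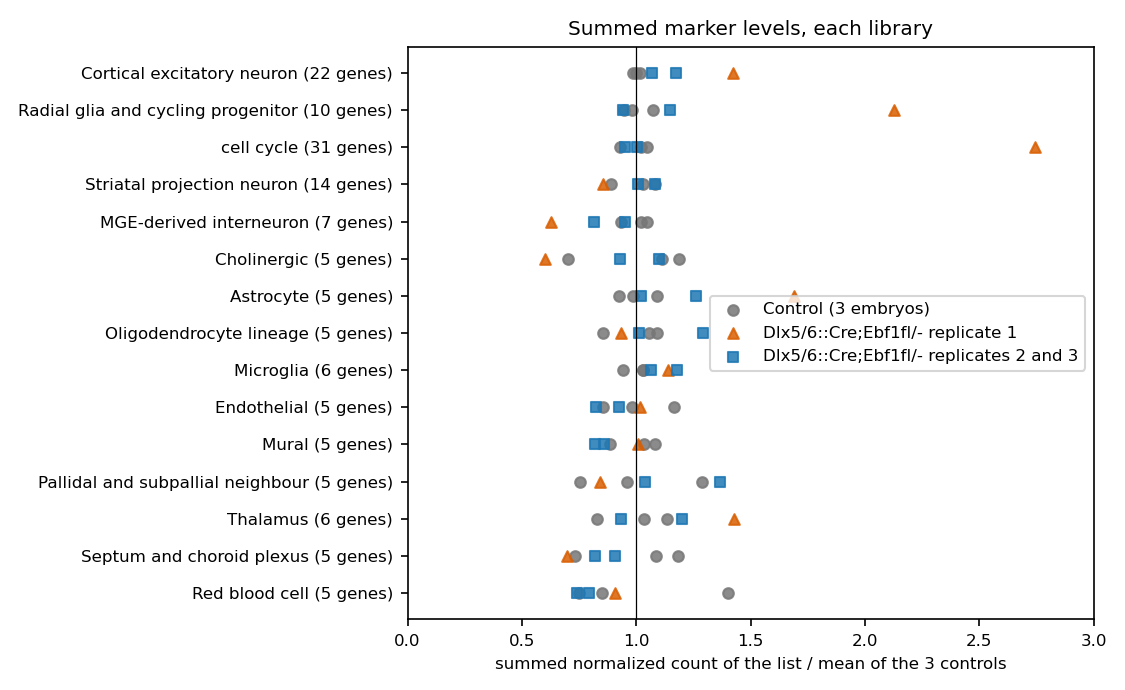
Summed normalized count of each marker list in each library over the mean of the 3 controls, with controls as grey circles, mutant replicate 1 as an orange triangle and mutants 2 and 3 as blue squares. Replicate 1 stands at 2.74 for cell cycle, 2.13 for progenitor and 1.42 for cortical genes, where the other mutants lie between 0.943 and 1.17.

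Markers of other cells were called in few cases. Of the 6 microglia markers none was called by edgeR, with 2 at an unadjusted p below 0.05. Their sum ranged from 2335 to 2554 in the controls and from 2643 to 2923 in the mutants, so that the groups did not overlap. Among single genes the groups did not overlap in 2 of the 6 markers and in 20.9% of all genes tested. Genes of macrophages outside the list, picked after their values were seen, rose. Lyz2, a lysozyme, had 26.2, 30.2 and 20.2 in controls and 122, 96.5 and 88.1 in mutants. Fcrls had 183, 174 and 183 in controls and 399, 454 and 289 in mutants. Mpeg1, a pore-forming protein of phagocytes, had 112, 129 and 122 in controls and 239.6, 288 and 213 in mutants. Slc1a2, the astrocytic glutamate transporter, rose by 0.48, and Clic6 of choroid plexus fell by 1.33 on the log2 scale. Markers of the oligodendrocyte lineage, endothelium, mural cells, thalamus and red blood cells had no call. The part of these cells in the results was not tested.

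Of the calls that depended on replicate 1, the lost ones were ranked by the loss of effect. The gained ones were ranked by the size of the change without replicate 1, at a mean of at least 100. The 8 lost ones with the largest loss of effect included Ptprq, Kdm2b, Col4a4 and Cd84, and Ptprq, a receptor phosphatase, went from -2.90 to -2.54 with an adjusted p of 0.0444 and 0.0639. Of the gained genes Ust, a sulfotransferase of matrix sugars, had 327, 231 and 123.1 in controls and 128, 54.6 and 48.1 in mutants. Whrn, a scaffold protein, had 1024, 523 and 480.0 in controls and 393, 222 and 211 in mutants. Pnoc, the precursor of nociceptin, had 130.3, 187 and 182 in controls and 187, 439.8 and 362 in mutants. Adra1b, an adrenergic receptor, had 71.5, 122 and 103 in controls and 82.0, 284 and 225 in mutants. Lgr4, a receptor for R-spondins, had 129, 181 and 112 in controls and 185, 374 and 307 in mutants. In Pnoc and Adra1b replicate 1 lay within the controls or at their upper edge, and mutants 2 and 3 lay above them. Rpl3-ps1, a pseudogene that can share reads with its parent gene, had 9.95, 8.17 and 39.4 in controls and 5.40, 666 and 642 in mutants and is uncertain for that reason.

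The genes around Ebf1 were examined because the null and floxed alleles travel with the flanking chromosome. Within 10 Mb of Ebf1, 2 of 128 tested genes were called (1.56%), against 1.72% of the other genes on chromosome 11. The first, Ccnjl, had 433, 457 and 386 in controls and 273, 197 and 198 in mutants. The second was Tenm2, described among the teneurins.

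Promoters were searched for the letters TCCCNNGGGA, a palindrome that reads the same on both strands and resembles the site known for Ebf factors. RefSeq windows (GRCm38.p6) from 250 bases before to 50 after the start were matched to 11632 of the 16368 tested genes. The letters were in 1.32% of these windows, in 2 of 160 lower genes (1.25%) and in 5 of 133 higher genes (3.76%). Of the 24 genes with the largest changes, 17 had a window and none of these held the letters. For Foxo1, which fell, and Grm7, which rose, the matches are shown 5′ to 3′ with 10 flanking bases and the letters in capitals, so that a lower and a higher gene can be compared. Both were chosen after their values were seen.
Foxo1: tactgccgccTCCCGAGGGAaggcagcgcc
Grm7: atccacagatTCCCTGGGGAccacgaaact
The Foxo1 match lies at chr3:52268235-52268264 and the Grm7 match at chr6:110645308-110645337, both on the plus strand, and their capitals begin 92 and 194 bases before the start. A match of letters describes the window and is not evidence of binding.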

How the data were processed

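Striatal RNA from single embryos was sequenced as stranded mRNA libraries. The authors aligned reads with STAR (2.4.0k), removed reads with several alignments and counted reads per Ensembl gene with HTSeq (0.5.3). The deposited values were taken to be raw counts per gene on mm10. The strand setting of the counting is not given in the sources used here, so overlapping antisense genes are uncertain. Removal of reads with several alignments lowers counts of near-identical genes.

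Counts of all 9 libraries entered edgeR (4.0.16, R 4.3.3), with filterByExpr at a minimum count of 10, TMM normalization, a quasi-likelihood test of Dlx5/6::Cre;Ebf1fl/- against Control and Benjamini-Hochberg adjustment over all tested genes. Normalized counts use DESeq2 (1.42.0) size factors. Intervals are 95% intervals of the fit. P-values set the difference between genotypes against the spread among libraries of the same genotype, estimated over all 3 genotypes. Gene positions are from GENCODE M21. The fits were tested on simulated counts. With all 9 libraries, 67% of 100 genes changed by 0.75 on the log2 scale and 92% of 100 changed by 1.5 were recovered. Of the calls 5.92% were false. Without mutant replicate 1, 80% and 96% were recovered, and 6.38% of calls were false. The changed genes were drawn only from genes above a limit on the mean count that is stricter than the filter of the fits. Recovery of genes with lower counts was thus not measured. The simulated counts gave no library a shift of its own and held no effect of the embryo code prefix.

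Named genes were the 12 lower and 12 higher protein-coding calls with the largest change, groups apart and a mean of at least 100, up to 6 called members per list, up to 8 genes lost or gained without mutant replicate 1, cortical markers and calls within 10 Mb of Ebf1. The members and lists were chosen with earlier results of these data known. Same-numbered mutants and controls correlated at 0.178, 0.0775 and 0.168 in their deviations from the group means. Differently numbered ones correlated at -0.177 to 0.0397, below each of these. Whether the numbers mark pairs was not tested. The study's methods name no pairs, so the main fit used none, and blocking on the number was run as an alternative. In total 15 alternatives were run. Some genes that met the rule are not reported here.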

Additional observations from a re-analysis of the deposited data

How the results depend on the processing

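The 392 calls (172 higher, 220 lower) became 857 (403 and 454) by the DESeq2 Wald test, 708 (332 and 376) when every gene with a count was tested, 181 (69 and 112) with only the 6 samples of the comparison, 32 (5 and 27) when the prefix of the embryo code entered the model and 970 (530 and 440) with DESeq2 and no mutant replicate 1. Leaving out 1 library at a time gave 143 to 613 calls, 55 to 348 higher and 88 to 265 lower. The other alternatives stayed within 1.5 times, with 396 under DESeq2 size factors, 361 under a stricter filter and 482 with only the 5 samples left without mutant replicate 1. Blocking on the replicate number gave 363 calls, 305 of them shared. Over the 129 named genes no alternative reversed a direction, in 1926 pairs of gene and alternative, while 470 pairs lost the call, 102 of them under the embryo code prefix. The cause was not tested. With 3 embryos per group, genes not called are not shown to be equal.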
